A study of Mus musculus with 12 samples.

Results

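The primitive endoderm genes examined were Gata4, Gata6, Sox17, Sox7, Pdgfra, Dab2, Cubn and Amn, taken by symbol from a table of 50978 genes measured by RNA sequencing, and all 8 were found. RNA came from mouse E14 embryonic stem cells (ESCs, of 129 origin) cultured feeder-free in 15% serum with LIF, the cytokine that keeps them self-renewing, with 2 libraries for each of 3 lines. The first line was the parental ESCs. The second, ESC + H/F-PRAMEL7 WT, overexpressed HA-FLAG-tagged full-length PRAMEL7, and the third, ESC + H/F-PRAMEL7 ΔN, overexpressed a tagged form of PRAMEL7 that lacked the start of its N terminus, 50 amino acids by the labels, although the published description gives a shorter deletion. Both transgenes sat at Rosa26 and were driven by the CAG promoter, and single-cell clones had been picked after selection, whereas the parental ESCs carried no transgene. Each derived line may thus be 1 clone, so what belongs to a clone and what belongs to its transgene cannot be told apart here. The labels speak of independent dishes, and the spread between 2 libraries is that of dishes of 1 line.

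PRAMEL7 is a pre-implantation protein that serves as a substrate receptor of CUL2 ubiquitin ligases, and the ΔN form served to ask which changes depend on CUL2. Primitive endoderm segregates from the epiblast, the source of ESCs, within the inner cell mass of the blastocyst. FGF signalling through ERK raises GATA6 against NANOG in the cells that take this path, the PDGF receptor alpha marks them, and GATA4, SOX17 and SOX7 follow as they mature. Their descendants, the parietal and visceral endoderm of the yolk sac, lay down basement membrane and take up maternal protein, the latter through cubilin, amnionless and the adaptor DAB2. ESCs grown in serum hold few such cells, and in a bulk library a change in the number of expressing cells and a change of RNA per cell cannot be told apart.

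Between 18249399 and 19850295 reads per library fell on genes. Pramel7 checked the labels: it had 5 and 4 reads in the parental libraries, 1011 and 840 in the PRAMEL7 WT libraries and 7921 and 8159 in the PRAMEL7 ΔN libraries, so transcript levels of the transgenes themselves were not matched between the derived lines. The 8 summed markers of embryonic stem cells lay between 5067 and 6113 CPM in every library, where CPM is a gene's reads scaled to the usual common total of reads on genes. Single markers did change. In the test described below 1 of the 8 was called higher and 3 lower in PRAMEL7 WT cells, and 1 and 0 in PRAMEL7 ΔN cells.

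All 8 genes were low. Summed over the 8, the parental libraries held 217 and 147 reads, the PRAMEL7 WT libraries 274 and 227, and the PRAMEL7 ΔN libraries 224 and 192, which came to 11.2 and 7.98, 13.9 and 12.5, and 11.2 and 10.1 CPM. To compare genes with each other, CPM was divided by exon length in kb (exon RPKM). Sox7 had the highest mean level over the 6 libraries at 1.54 exon RPKM, followed by Gata4 at 0.505, Amn at 0.369, Dab2 at 0.221, Pdgfra at 0.0613, Cubn at 0.0510, Gata6 at 0.0394 and Sox17 at 0.0329. On the same scale the 10 epiblast genes that oppose this fate, among them Nanog, Esrrb and Klf4, spanned 15.8 to 342.6 with a median of 106.4. The order differed between lines. In parental ESCs it ran Sox7 (1.18 ± 0.253, SD, n = 2), Amn (0.459 ± 0.0162), Gata4 (0.276 ± 0.115), Dab2, Pdgfra, Cubn, Gata6 and Sox17, and the libraries of Gata4 and Dab2 overlapped, as did those of Cubn and Gata6 and of Gata6 and Sox17. In PRAMEL7 WT cells Gata4 (0.594 ± 0.0221) stood above Amn (0.317 ± 0.0593) in both libraries, and only Amn and Dab2 overlapped among neighbours. In PRAMEL7 ΔN cells Gata4 (0.645 ± 0.0515) was again above Amn (0.332 ± 0.146), and the 4 lowest, Sox17, Gata6, Pdgfra and Cubn, overlapped each with the next.

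**Figure D1:**
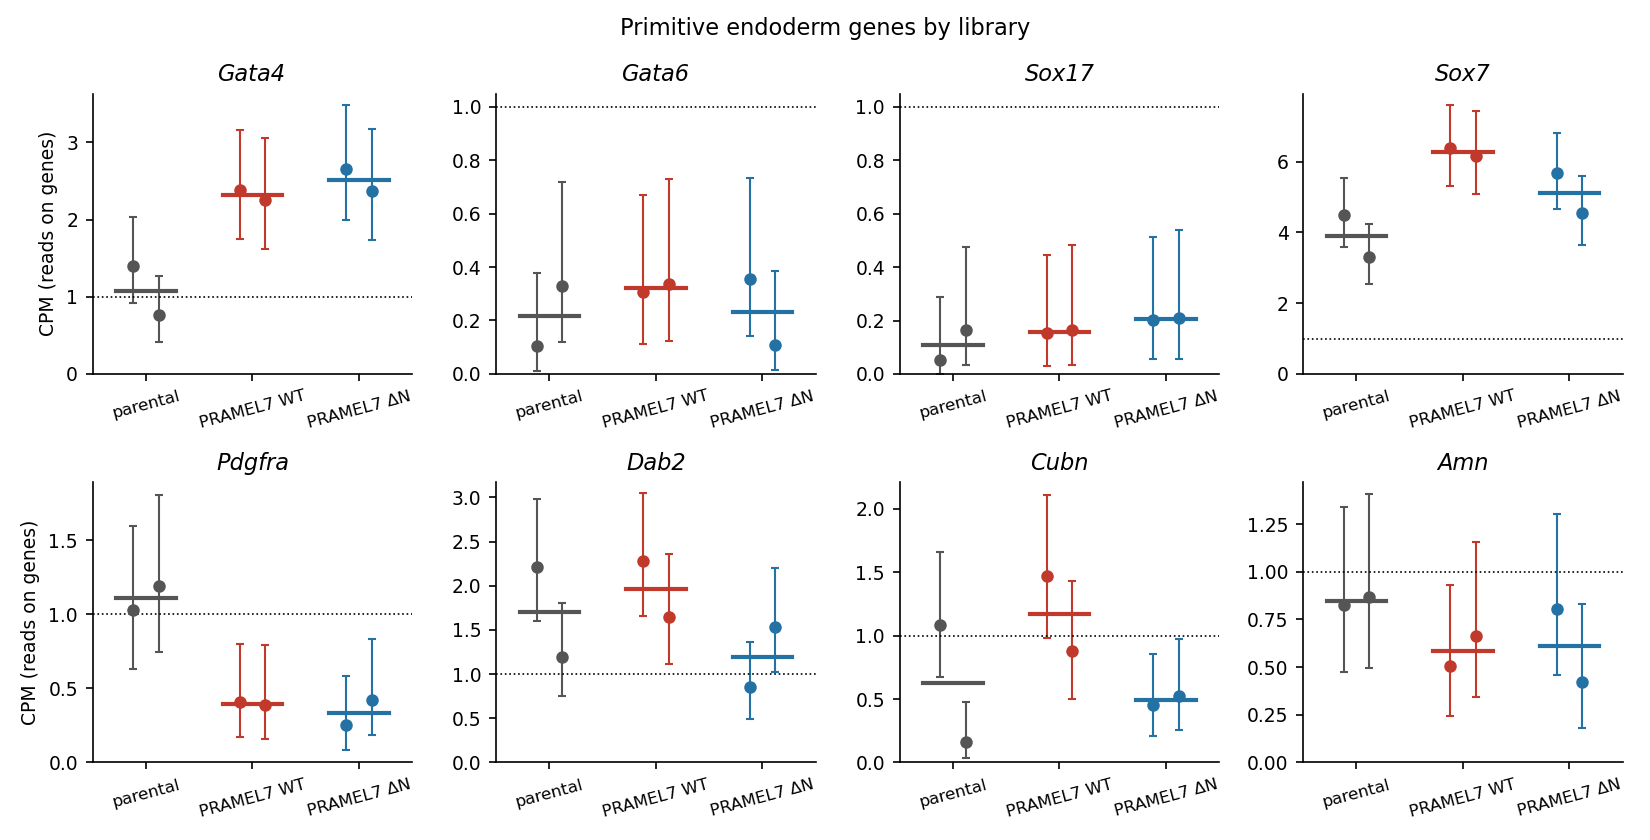
CPM (vertical axis, a linear scale from 0 that differs between panels) of each gene in the 2 libraries of each line (horizontal axis). Points are libraries with exact Poisson 95% intervals for counting error, thick bars are means and the dotted line marks 1 CPM. Both derived lines lie above parental ESCs for Gata4 and below them for Pdgfra, while Gata6, Sox17 and Amn stay under 1 CPM in every library.

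A test across genes was made on the 12914 genes that exceeded 1 CPM in 2 or more libraries, with limma on log2(CPM + 1), which understates the fold change of low genes, and Benjamini-Hochberg adjustment. Sox7 exceeded 1 CPM in 6 libraries, Gata4 and Dab2 in 5 each, and Pdgfra and Cubn in 2 each. Pdgfra did so only in the parental libraries, so that any value it got in the test had to lean one way, and Cubn only in parental replicate 1 and PRAMEL7 WT replicate 1. Gata6, Sox17 and Amn exceeded it in none and were not tested there. Even among the tested genes these 5 were low: 76.7% of the tested genes had a higher mean CPM than Sox7, 88.5% than Gata4, 90.7% than Dab2, 99.4% than Cubn and 99.9% than Pdgfra.

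In PRAMEL7 WT cells relative to parental ESCs, 2 of these genes passed the test as higher (Gata4 and Sox7) and 1 as lower (Pdgfra), where 25.0% of all tested genes passed in either direction (8.71% higher and 16.3% lower). In PRAMEL7 ΔN cells 1 passed as higher (Gata4) and 1 as lower (Pdgfra), where 19.9% of all tested genes passed (6.25% and 13.6%). Between the derived lines 0 of them passed by limma, and 0 had an unadjusted p under 0.05, where 20.4% of all tested genes passed (10.9% higher in PRAMEL7 WT and 9.44% lower). With all genes above 0 admitted and voom run on the recovered reads, an alternative added after seeing the data, 0 of the 8 passed in any comparison, where 9.13%, 7.99% and 7.38% of genes did in the same order. All 8 genes were also compared library by library, without the filter. The shares set beside them are over the tested genes only, which leave out Gata6, Sox17 and Amn. Relative to parental ESCs, 2 genes had both PRAMEL7 WT libraries above both parental ones and 2 had both below, where 24.3% and 40% of all tested genes did. For PRAMEL7 ΔN these numbers were 3 and 2 genes against 21.6% and 35.4%. Between the derived lines 3 genes had both PRAMEL7 WT libraries above both PRAMEL7 ΔN ones and 1 had both below, against 33.2% and 35.6%. Each pair of comparisons shares the libraries of a line.

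**Figure D2:**
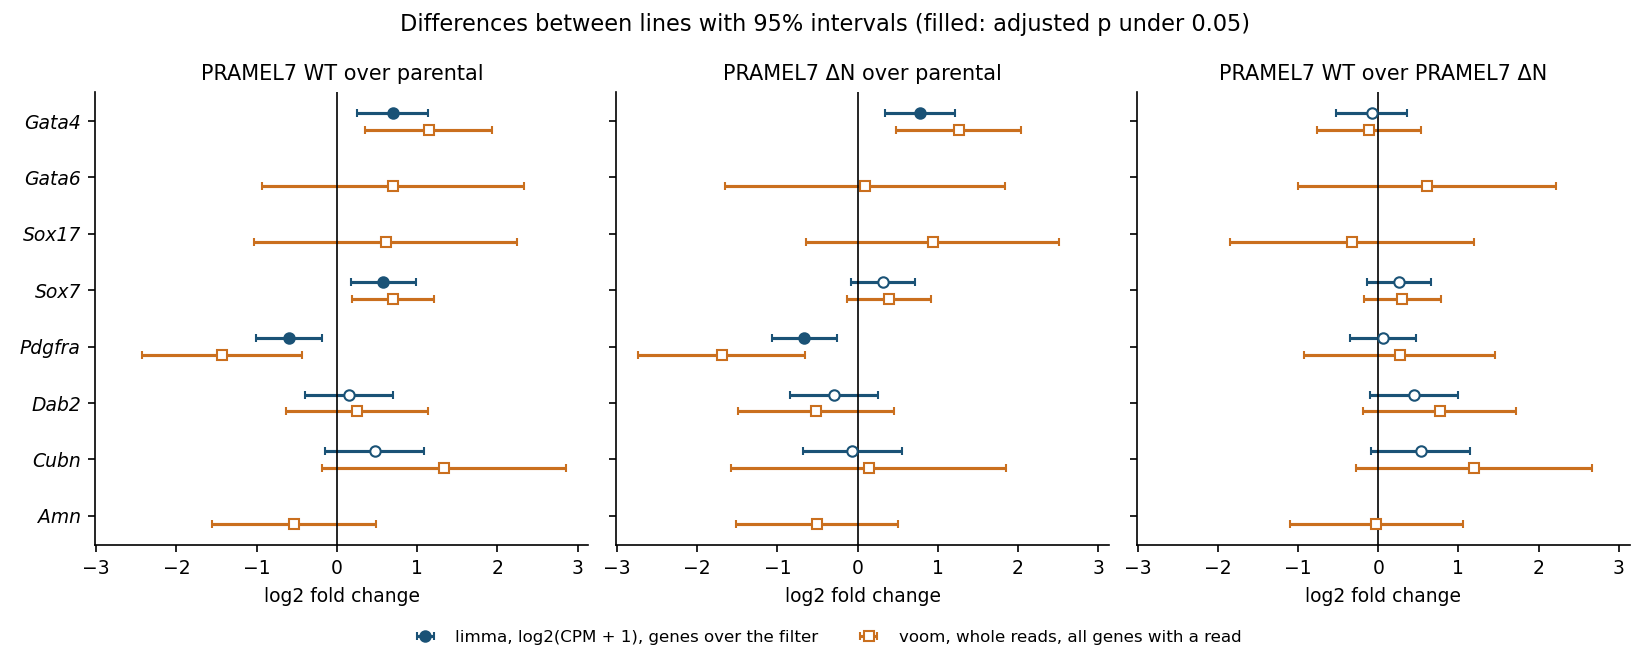
Log2 fold change (horizontal axis) of each gene (vertical axis) in the 3 comparisons, with 95% intervals over libraries. Circles are limma on log2(CPM + 1) for the 5 genes over the filter, squares voom on whole reads for all 8, and filled marks have an adjusted p under 0.05; Gata4, Sox7 and Pdgfra are filled on the left, Gata4 and Pdgfra in the middle, and none on the right.

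Among the transcription factors, Gata4, a zinc-finger factor that can by itself drive ESCs toward extraembryonic endoderm, was higher in both derived lines. The gene lies on chromosome 14, 63198922 to 63271692, minus strand (GRCm38). It had 27 and 14 reads (1.39 and 0.759 CPM) in parental ESCs, 47 and 41 reads (2.38 and 2.26 CPM) in PRAMEL7 WT cells and 53 and 45 reads (2.66 and 2.38 CPM) in PRAMEL7 ΔN cells. Every library of the derived lines was above both parental libraries, and the 2 derived lines overlapped each other in range. Mean CPM was 1.08 ± 0.448 (SD, n = 2), 2.32 ± 0.0862 and 2.52 ± 0.201, a ratio to parental ESCs of 2.15 for PRAMEL7 WT and 2.34 for PRAMEL7 ΔN. By limma the log2 fold change was 0.69 (SE 0.19, adjusted p = 0.0299) for PRAMEL7 WT and 0.78 (SE 0.19, adjusted p = 0.0216) for PRAMEL7 ΔN. Between the derived lines it was -0.08, with a 95% interval of -0.52 to 0.35. The calls rested on few libraries. Without parental replicate 2, the lowest library, the limma values fell to 0.47 (adjusted p = 0.0959) and 0.55 (adjusted p = 0.0712). The PRAMEL7 WT call was also lost without PRAMEL7 WT replicate 1 or 2 (adjusted p = 0.155 and 0.128) and without PRAMEL7 ΔN replicate 1 or 2 (0.0550 and 0.0548), and the PRAMEL7 ΔN call without PRAMEL7 ΔN replicate 1 or 2 (0.144 and 0.0922). Without the filter on low genes limma gave adjusted p = 0.104 and 0.0863 for the same fold changes.

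Sox7, an SRY-box factor of parietal endoderm that also acts in endothelium, lies on the same chromosome at 63943673 to 63950732, plus strand. Its libraries held 87 and 61 reads (4.49 and 3.31 CPM) in parental ESCs, 126 and 112 reads (6.38 and 6.17 CPM) in PRAMEL7 WT cells and 113 and 86 reads (5.67 and 4.54 CPM) in PRAMEL7 ΔN cells. Both PRAMEL7 WT libraries were above all others, and the PRAMEL7 ΔN libraries were in between, with PRAMEL7 ΔN replicate 2 nearly level with parental replicate 1. Mean CPM was 3.90 ± 0.835, 6.27 ± 0.150 and 5.11 ± 0.800 (SD, n = 2 each). By limma the log2 fold change was 0.58 (SE 0.18, adjusted p = 0.0407) for PRAMEL7 WT and 0.32 (SE 0.18, adjusted p = 0.245) for PRAMEL7 ΔN. The derived lines differed by 0.26, with an interval of -0.14 to 0.66 (limma adjusted p = 0.331), so a PRAMEL7 WT excess over PRAMEL7 ΔN was not shown. The PRAMEL7 WT call was lost without any library other than parental replicate 1: without parental replicate 2 the log2 fold change was 0.41 (limma adjusted p = 0.113), and it was 0.56 and 0.60 without PRAMEL7 WT replicate 1 or 2 (0.190 and 0.163) and 0.58 without PRAMEL7 ΔN replicate 1 or 2 (0.0598 and 0.0589). Without the filter its adjusted p by limma was 0.144.

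Gata4 and Sox7 are neighbours, with 671.98 kb between their ends, so their region was described as well. The 26 other tested genes within 2 Mb of Sox7 had a median log2 fold change of -0.08 in PRAMEL7 WT and -0.07 in PRAMEL7 ΔN cells, against medians of -0.08 and -0.06 over all tested genes. Of these neighbours 3 passed the test as higher and 3 as lower in PRAMEL7 WT cells, and 2 and 1 in PRAMEL7 ΔN cells. Over all tested genes 25.0% passed in either direction in PRAMEL7 WT and 19.9% in PRAMEL7 ΔN cells. The neighbour Xkr6, which lies between Gata4 and Sox7 and was singled out after its values were seen, had log2 fold changes of 0.58 (limma adjusted p = 0.0286) and 0.69 (adjusted p = 0.0158).

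**Figure D3:**
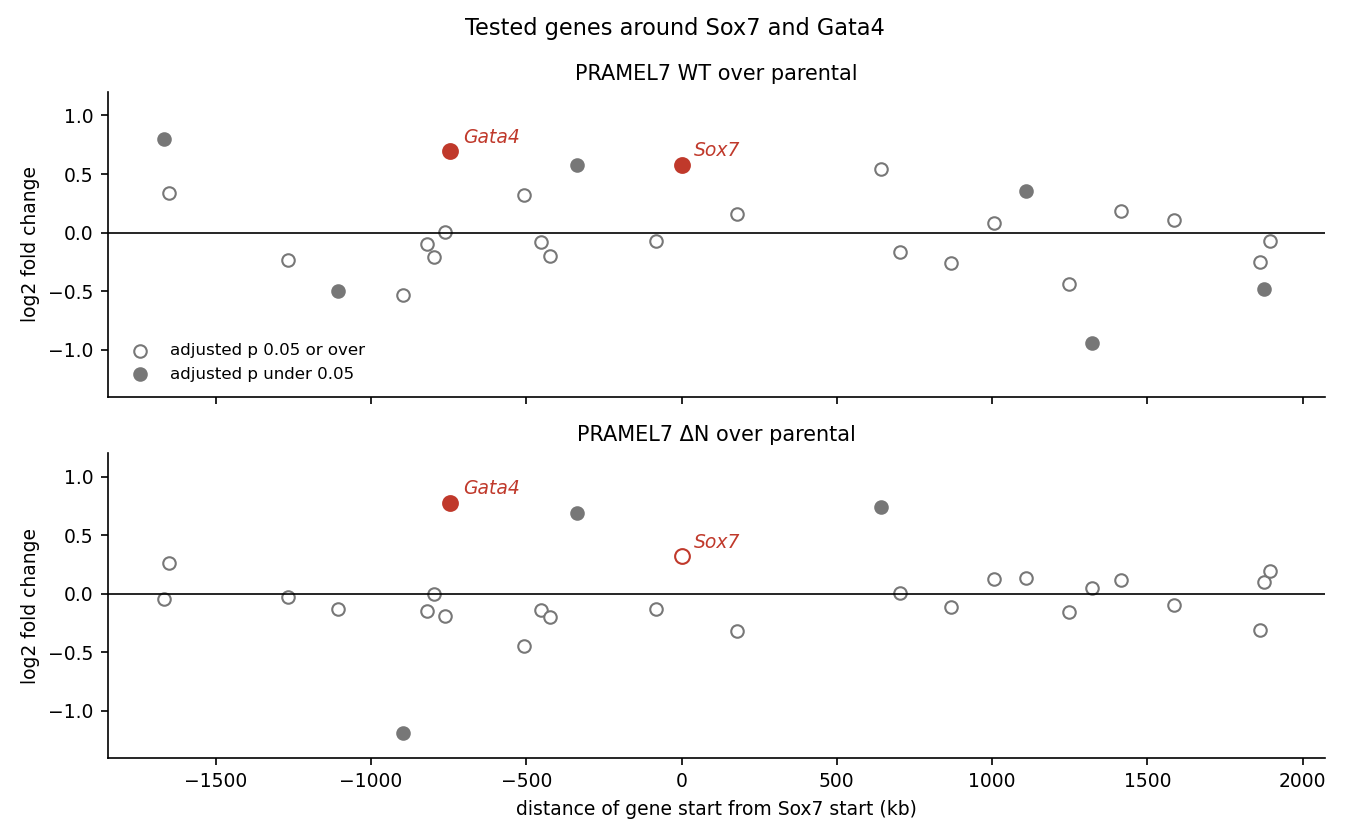
Log2 fold change over parental ESCs (vertical axis) of the tested genes within 2 Mb of Sox7, by distance of their start from the start of Sox7 in kb (horizontal axis). Filled points have a limma adjusted p under 0.05 and red marks the members; the 26 neighbours scatter around 0, with Gata4 and Sox7 above most of them in the upper panel.

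The other 2 factors, Gata6 and Sox17, were near the limit of detection. Gata6, the earliest of these factors in the lineage (chromosome 18, 11052064 to 11085635, plus strand), had 2 and 6 reads in parental ESCs, 6 and 6 in PRAMEL7 WT cells and 7 and 2 in PRAMEL7 ΔN cells. Sox17, an SRY-box factor shared by primitive and definitive endoderm (chromosome 1, 4490931 to 4497354, minus strand), had 1 and 3 reads, 3 and 3, and 4 and 4. The lines overlapped for Gata6, while both PRAMEL7 ΔN libraries of Sox17 were above the others by a single read. The summed reads gave Gata6 a ratio to parental ESCs of 1.50 (exact 95% interval 0.562 to 4.22) in PRAMEL7 WT and 1.09 (0.375 to 3.26) in PRAMEL7 ΔN cells. For Sox17 the ratios were 1.50 (0.355 to 7.21) and 1.95 (0.521 to 8.83). These intervals cover counting error only and take in both a ratio of 1 and the ratios of Gata4, so a change of either gene of that size was not detectable at this depth.

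Pdgfra, which encodes the PDGF receptor alpha and is also strong in fibroblasts, was the single member that passed as lower, and it did so in both derived lines. The gene lies on chromosome 5, 75152292 to 75198215, plus strand. It had 20 and 22 reads (1.03 and 1.19 CPM) in parental ESCs, 8 and 7 reads (0.405 and 0.385 CPM) in PRAMEL7 WT cells and 5 and 8 reads (0.251 and 0.422 CPM) in PRAMEL7 ΔN cells. Both parental libraries were above all 4 others, and the derived lines overlapped. Mean CPM was 1.11 ± 0.114, 0.395 ± 0.0138 and 0.337 ± 0.121 (SD, n = 2 each). The summed reads gave ratios to parental ESCs of 0.356 (exact 95% interval 0.183 to 0.656, counting error only) and 0.301 (0.148 to 0.572). By limma the log2 fold change was -0.60 (SE 0.18, adjusted p = 0.0402) in PRAMEL7 WT and -0.66 (SE 0.18, adjusted p = 0.0319) in PRAMEL7 ΔN cells, smaller than these ratios because of the pseudocount of 1. By voom without the filter it was -1.43 (adjusted p = 0.0794) and -1.69 (adjusted p = 0.0546). The derived lines differed by 0.06 by limma, with an interval of -0.35 to 0.48. Since Pdgfra entered the test through its parental libraries alone, the fits with no filter bear on it, and they disagreed. There limma gave adjusted p = 0.0319 and 0.0237, with an SE of 0.11 in place of 0.18, while neither voom value passed.

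Promoter sequence was held for 4 of the 8, Pdgfra, Dab2, Cubn and Amn (RefSeq on GRCm38.p6, 250 bases before to 50 after the start). Windows were searched on both strands for letters that GATA, SOX and OCT factors are known to bind. The GATA letters AGATAA occur in 11.2% of 32851 promoters of that length, and the form beginning with T, TGATAA, in 9.05% of them. The SOX letters AACAAT occur in 10.7%, their variant AACAAA in 20.2%, and the octamer ATGCAAAT in 1.74%. The Pdgfra window is shown because, of these 4, only Pdgfra passed in both derived lines. The first of 2 Dab2 windows is shown as the single one with a match. Capitals mark both matches, first TGATAA on the plus strand and then the other GATA form on the minus strand, printed as its reverse complement TTATCT.
Pdgfra, chr5:75152001-75152300, plus strand: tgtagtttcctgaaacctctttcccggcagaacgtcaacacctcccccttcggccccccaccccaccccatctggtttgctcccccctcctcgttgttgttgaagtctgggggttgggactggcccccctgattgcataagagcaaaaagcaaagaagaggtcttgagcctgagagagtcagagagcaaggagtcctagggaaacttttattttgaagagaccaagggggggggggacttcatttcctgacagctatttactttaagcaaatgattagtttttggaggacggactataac
Dab2, chr15:6299539-6299838, plus strand: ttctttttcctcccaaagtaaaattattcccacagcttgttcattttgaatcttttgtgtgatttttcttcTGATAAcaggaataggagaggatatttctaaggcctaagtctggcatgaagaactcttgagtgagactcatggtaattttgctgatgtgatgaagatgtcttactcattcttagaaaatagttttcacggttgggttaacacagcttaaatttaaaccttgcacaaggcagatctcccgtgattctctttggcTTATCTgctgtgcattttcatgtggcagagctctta
The Pdgfra, Cubn, Amn and second Dab2 windows held none of these letters. A match is a description of sequence and no measurement of binding.

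Both Pdgfra calls were also lost when single libraries were left out, parental replicate 1 excepted. In PRAMEL7 WT cells the log2 fold change without parental replicate 2 was -0.54 (limma adjusted p = 0.0890), without PRAMEL7 WT replicate 1 or 2 it was -0.61 and -0.59 (0.159 and 0.168), and without PRAMEL7 ΔN replicate 1 or 2 it was -0.60 (0.0655 and 0.0664). For PRAMEL7 ΔN the adjusted p was 0.0793, 0.0605, 0.0605, 0.197 and 0.0971 in the same order, with log2 fold changes between -0.57 and -0.75. Median-ratio scaling of the libraries took the PRAMEL7 WT value to an adjusted p of 0.0533. The direction was the same in each of these fits.

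**Figure D4:**
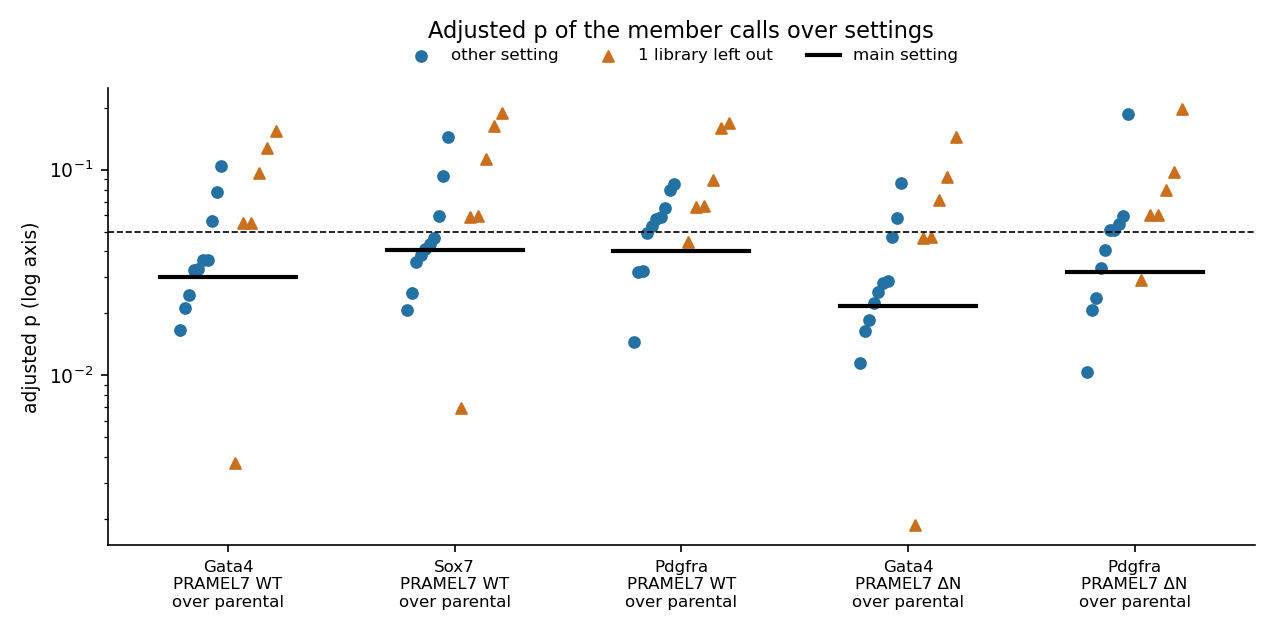
Adjusted p (vertical axis, log scale) of the 5 calls made among these genes (horizontal axis) over 16 alternative settings each, 6 of which leave out 1 library. The black bar is the main limma fit and the dashed line 0.05. Each call has settings on both sides of the line. For Gata4 and Sox7 the lowest leave-one-out value, that without parental replicate 1, is far below the others.

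Because Pdgfra marks mesenchyme too, markers of embryonic fibroblasts were set beside it. Of 9 markers, Dcn, Lum and Twist2 were at 0 in all 6 libraries and 3 were tested. Their summed level was 52.2 and 71.4 CPM in parental ESCs, 25.1 and 26.7 CPM in PRAMEL7 WT cells and 53.7 and 46.8 CPM in PRAMEL7 ΔN cells. All 3 tested markers passed as lower in PRAMEL7 WT cells. These were Pdgfrb (log2 fold change -1.43, limma adjusted p = 0.00198), Thy1 (-1.08, adjusted p = 0.00147) and Col1a1 (-1.02, adjusted p = 0.0109). Col1a1 had passed the filter through parental and PRAMEL7 ΔN libraries alone, so that it could only lean lower in PRAMEL7 WT cells. By limma 0 passed in PRAMEL7 ΔN cells, where Col1a1 and Pdgfrb had an unadjusted p under 0.05 (-0.64 and -0.46). Thy1 made up most of the sum over the 9 markers, with 39.6 and 52.4 CPM in parental ESCs and 42.3 and 37.9 CPM in PRAMEL7 ΔN cells. The part of fibroblasts in the Pdgfra values was not tested. For Sox7 and Sox17, which endothelium uses as well, the 6 endothelial markers summed to 33.1 and 33.4 CPM in parental ESCs, 20.6 and 19.5 CPM in PRAMEL7 WT cells and 35.7 and 33.7 CPM in PRAMEL7 ΔN cells, with Emcn at 0 throughout. Of the 3 tested, Tek (log2 fold change -0.70) and Tie1 passed as lower in PRAMEL7 WT cells, where 16.3% of all tested genes did. Tie1 also passed as higher in PRAMEL7 ΔN cells, where 6.25% of all tested genes did. Tie1 had passed the filter through parental and PRAMEL7 ΔN libraries alone, so that it could only lean lower in PRAMEL7 WT cells. Tek made up most of the sum (28.9 and 29.0 CPM in parental ESCs). The part of these cells in the Sox7 and Sox17 values was not tested. Markers of mesendoderm and definitive endoderm, relevant to Sox17 and Gata6, summed to 9.24 and 7.97, 6.23 and 8.48, and 12.7 and 13.7 CPM, with Cer1 at 0. Of these markers 2 were tested. Cxcr4 passed as lower in PRAMEL7 WT cells (log2 fold change -0.60, limma adjusted p = 0.0321). Eomes passed as higher in PRAMEL7 ΔN cells (0.96, limma adjusted p = 0.00513). Trophoblast markers summed to 68.4 and 105.3, 75.1 and 81.1, and 44.0 and 45.6 CPM, with 4 tested. In PRAMEL7 ΔN cells Tfap2c fell (-1.26), Eomes, which is on both lists, is the rise just given, and Hand1 was also called higher but had passed the filter through its PRAMEL7 ΔN libraries alone. Markers of 2-cell-like cells did not exceed 0.271 CPM in sum, and 4 of the 7 were at 0.

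The endocytic members came next. Cubilin (Cubn) and amnionless (Amn) form the receptor of visceral endoderm for vitamin B12 with its carrier and for other proteins, and DAB2 links such receptors to clathrin. None of the 3 passed by limma in any comparison. Dab2 (chromosome 15, 6299788 to 6440712, plus strand) had 43 and 22 reads (2.22 and 1.19 CPM) in parental ESCs, 45 and 30 reads (2.28 and 1.65 CPM) in PRAMEL7 WT cells and 17 and 29 reads (0.853 and 1.53 CPM) in PRAMEL7 ΔN cells. The parental libraries overlapped those of both derived lines. Log2 fold changes were 0.15 (limma adjusted p = 0.679) and -0.29 (adjusted p = 0.439) against parental ESCs. The first of these had no stable sign, at -0.13 without parental replicate 2 and -0.0028 without PRAMEL7 WT replicate 1. PRAMEL7 WT exceeded PRAMEL7 ΔN by 0.44, with an interval of -0.10 to 0.99 (limma adjusted p = 0.222), and both PRAMEL7 WT libraries were above both PRAMEL7 ΔN libraries.

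Cubn (chromosome 2, 13276338 to 13491813, minus strand) varied most between libraries of 1 line relative to its mean, with 21 and 3 reads (1.08 and 0.163 CPM) in parental ESCs. PRAMEL7 WT cells had 29 and 16 reads (1.47 and 0.881 CPM) and PRAMEL7 ΔN cells 9 and 10 reads (0.452 and 0.528 CPM). Its parental libraries enclosed those of PRAMEL7 ΔN, and both PRAMEL7 WT libraries were above both PRAMEL7 ΔN libraries. By limma the log2 fold change over parental ESCs was 0.47 (SE 0.28, adjusted p = 0.232) for PRAMEL7 WT and -0.06 (SE 0.28, adjusted p = 0.903) for PRAMEL7 ΔN. Between the derived lines it was 0.53, with an interval of -0.08 to 1.15 (limma adjusted p = 0.198). Cubn had passed the filter through no PRAMEL7 ΔN library, so the filter favoured a higher value in PRAMEL7 WT than in PRAMEL7 ΔN cells. With no filter that difference had adjusted p = 0.346 by limma and 0.341 by voom. Without parental replicate 1 Cubn passed in PRAMEL7 WT cells over parental ESCs (0.89, limma adjusted p = 0.0107), and without parental replicate 1 or 2, where the SE was 0.20 in place of 0.28, PRAMEL7 WT passed over PRAMEL7 ΔN (adjusted p = 0.0485 and 0.0450). Without parental replicate 1 the PRAMEL7 ΔN value over parental ESCs also changed sign, to 0.36, as it did with a pseudocount of 0.1 (0.08), quantile normalization (0.17) and voom (0.14). Amn (chromosome 12, 111271095 to 111276426, plus strand) had 16 and 16 reads (0.826 and 0.868 CPM), 10 and 12 reads (0.506 and 0.661 CPM), and 16 and 8 reads (0.803 and 0.422 CPM). In CPM both derived lines were below parental ESCs in each library, although PRAMEL7 ΔN replicate 1 had the same 16 reads as each parental library. Ratios of summed reads were 0.686 (exact 95% interval 0.380 to 1.22) and 0.730 (0.411 to 1.28). The 2 partners of this receptor thus lay on opposite sides of their parental means in PRAMEL7 WT cells, and neither difference passed.

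Of 14 other transcription factors of the endoderm lineages, 6 were tested. Otx2, an anterior visceral endoderm and epiblast factor, rose in PRAMEL7 WT cells (log2 fold change 0.50, limma adjusted p = 0.00901) and fell in PRAMEL7 ΔN cells (-0.93, adjusted p = 0.000520). Nr5a2, which endoderm shares with ESCs, fell in both (-0.42 and -0.47). Hnf4a, a visceral endoderm factor, had passed the filter through 1 parental and 1 PRAMEL7 WT library, so that it could only lean lower in PRAMEL7 ΔN cells. Its log2 fold change there was -1.04 (limma adjusted p = 0.00678), with libraries at 0 and 0.0528 CPM. In all 1 was called higher and 1 lower in PRAMEL7 WT, and 0 and 3 (Hnf4a included) in PRAMEL7 ΔN cells. The medians of the 6 were 0.07 and -0.33 on the log2 scale, against -0.08 and -0.06 over all tested genes, to which the medians of the next lists compare as well. Counts of calls in this and the next lists compare with the shares over all tested genes. Those were 8.71% higher and 16.3% lower in PRAMEL7 WT, and 6.25% and 13.6% in PRAMEL7 ΔN cells.

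Of 32 genes of FGF and PDGF signalling, 30 were tested, and 4 were called higher and 4 lower in PRAMEL7 WT cells, and 8 and 5 in PRAMEL7 ΔN cells. Their median log2 fold changes were -0.02 and 0.12. Pdgfc, a ligand of the receptor that Pdgfra encodes, showed the largest rise of the list in PRAMEL7 WT cells, from 8.00 and 4.34 CPM to 25.4 and 25.5 CPM (log2 fold change 1.93, limma adjusted p = 0.000991), and was at 7.33 and 6.18 CPM in PRAMEL7 ΔN cells. Ligand and receptor transcripts thus lay on opposite sides of parental ESCs in the PRAMEL7 WT line. Fgfr1, an FGF receptor of early embryos, rose in PRAMEL7 WT cells (0.57), where the pathway kinase gene Braf fell (-0.51). In PRAMEL7 ΔN cells the adaptor Shc1 and the ERK phosphatase Dusp6 rose (0.71 and 0.70), while the receptor Fgfr2 and the phosphatase Dusp4 fell (-0.96 and -0.94).

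Among 19 genes of the parietal endoderm basement membrane and surface, 17 were tested, with 4 called higher and 2 lower in PRAMEL7 WT cells and 3 and 4 in PRAMEL7 ΔN cells, and medians of 0.07 and 0.0024. The type IV collagens Col4a1 and Col4a2 rose in PRAMEL7 ΔN cells (0.91 and 0.93), and the collagen chaperone Serpinh1 in PRAMEL7 WT cells (0.52). The intermediate filament gene Vim rose in PRAMEL7 WT (0.47) and fell in PRAMEL7 ΔN cells (-1.50), so that the derived lines differed by 1.97 (limma adjusted p = 1.6e-06). Stc1, a secreted glycoprotein that passed the filter through the parental libraries alone, fell in both (-1.14 and -0.98).

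Of 21 genes for visceral endoderm secretion and transport, 7 were tested, and 4 were called higher and 1 lower in PRAMEL7 WT cells, and 0 and 3 in PRAMEL7 ΔN cells. Of the 4 called higher, Spink1 and Apom had passed the filter through their PRAMEL7 WT libraries alone, so that they could only lean higher there. With both of them included, the medians of the 7 were 0.70 and -0.29. Spink1, a protease inhibitor, went from 0.533 and 0.336 CPM to 2.67 and 3.36 CPM (log2 fold change 1.48, limma adjusted p = 0.00191). Apoe, a lipoprotein that many cells make, and Lefty1, a Nodal antagonist that ESCs also make, rose in PRAMEL7 WT cells (0.78 and 0.70), and Lefty1 fell in PRAMEL7 ΔN cells (-0.84). Rbp4, the retinol carrier, fell in both (-0.81 and -0.77), and Cpn1, a carboxypeptidase subunit, in PRAMEL7 ΔN cells (-0.98).

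Of 23 partners of cubilin and DAB2 in endocytosis, 22 were tested, with 6 called higher and 4 lower in PRAMEL7 WT cells and 3 and 1 in PRAMEL7 ΔN cells, and medians of 0.03 and -0.05. The clathrin light chain gene Cltb rose in both (1.27 and 0.65), whereas the clathrin heavy chain gene Cltc fell in PRAMEL7 WT cells (-0.54). Ap2m1, an AP-2 adaptor subunit, rose in PRAMEL7 ΔN cells (0.62), and Lrpap1, the chaperone of megalin and related receptors, fell there (-0.45). On the side of the epiblast, Nanog, Zfp42 and Klf4 fell in PRAMEL7 WT cells (-0.36, -0.39 and -0.66) and Klf2 in PRAMEL7 ΔN cells (-1.34), with 0 of the 10 genes called higher over parental ESCs in either line and medians of -0.11 and 0.15. Nanog, the factor that GATA6 opposes, stood at 618.3 and 553.4 CPM in parental ESCs, 453.8 and 454.3 CPM in PRAMEL7 WT cells and 631.3 and 691.9 CPM in PRAMEL7 ΔN cells.

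The genes whose profile over the 6 libraries was most like that of a member were taken from 8560 genes by Pearson's r on log2(CPM + 1), as a description, since libraries of 1 line share their source. Enc1, Slc35d1 and Dhdds were nearest to Gata4 (r = 0.993 for Enc1), Sh3gl1, Snx17 and Rnf114 to Sox7 (0.992 for Sh3gl1), and Mrpl32 and Smarce1 were among those nearest to Pdgfra (0.995 for Mrpl32). For Dab2 they were Calca, Lypla1 and Aasdhppt (0.993 for Calca), and for Cubn Prep, Riox1 and Cks1b (0.996 for Prep).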

How the data were processed

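RNA was sequenced from parental ESCs, ESC + H/F-PRAMEL7 WT and ESC + H/F-PRAMEL7 ΔN, with 2 libraries per line from a kit that keeps no strand. The 6 ChIP samples of the series were not analysed here. According to the submitters' processing notes, Bowtie2 2.3.4.3 and Subread 1.4.6-p4 were among the tools and mm10 was the build, and the methods name STAR as the aligner of the RNA reads. The values the authors deposited are RPKM. A deposited table of the authors' own comparisons holds fold changes and p-values and was not used.

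RPKM values of up to 20 reads times the whole gene span (GENCODE vM21) came out within 0.1 of whole reads for 98.1% to 98.4% of values, but with exon length only for 41.3% to 43.0%, so the length in the RPKM was the span. Reads and CPM were recovered on that basis with the authors' scaling kept. Of 50978 genes, 176 with a repeated or date-like name, 2796 without a match and 66 with several matches were left out, and 47940 were used. The 12914 genes exceeding 1 CPM in 2 or more libraries were fitted with limma 3.58.1 in R 4.3.3 with trend on log2(CPM + 1), all 6 libraries in 1 fit, two-sided, Benjamini-Hochberg adjusted, and called at 0.05. The fit was tested on simulated data, with changes planted only in genes of higher mean reads than any member. That test thus does not cover calls at the levels of the members. Pearson's r between the 2 libraries of a line was 0.990 for parental ESCs, 0.997 for PRAMEL7 WT and 0.995 for PRAMEL7 ΔN. Intervals of ratios of reads are exact, at 95%, for counting error only. Depth per library is given with the results. Members were named in full, then of each list up to 4 called genes (the 2 highest and 2 lowest changes), and for each tested member the 3 nearest genes of at least 10 CPM, except 2 genes that are not reported here. The members and lists were chosen with earlier results of these data known. Antisense genes overlapping Sox17, Gata6, Pdgfra and Dab2 had 0 reads in the table, and the one overlapping Cubn (Gm13270) 0 to 5 per library, and without strand such reads cannot be told apart. Gm18888, which overlaps Dab2, was not used here. Alternatives covered the pseudocount, filter, scaling, model, thresholds, replicate block and libraries left out.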

Additional observations from a re-analysis of the deposited data

How the results depend on the processing

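Over 16 alternatives per call, the direction of Gata4, Sox7 and Pdgfra against parental ESCs did not change, but each call depended on the setting. Gata4 passed in 8 for PRAMEL7 WT (adjusted p 0.00375 to 0.155) and 11 for PRAMEL7 ΔN (0.00187 to 0.144), Sox7 in 8 (0.00692 to 0.190), and Pdgfra in 5 (0.0145 to 0.168) and 6 (0.0103 to 0.197). The count of members higher in PRAMEL7 WT, 2, became 0 with no filter, by voom without a filter or with only the compared lines fitted; the count in PRAMEL7 ΔN, 1, became 0 in the first and second of these. The count of members lower, 1 in each derived line, became 0 with a pseudocount of 5, quantile normalization, voom without a filter, the replicate block or only the compared lines, and for PRAMEL7 WT also with median-ratio scaling; the cause was not tested. Between the derived lines, 1 member (Cubn) passed as higher for PRAMEL7 WT with only these lines fitted (limma adjusted p = 0.0449). The filter had favoured that direction for Cubn, and with no filter it did not pass (adjusted p = 0.346 by limma and 0.341 by voom). Leaving out 1 library gave 0 to 3 members higher and 0 to 1 lower for PRAMEL7 WT (the 3 without parental replicate 1), 0 to 1 and 0 to 1 for PRAMEL7 ΔN, and 0 to 1 higher between the derived lines. A filter of 10 CPM or of 1 RPKM as deposited left 0 members.

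Counts over all genes moved too. For PRAMEL7 WT, 1125 higher and 2109 lower became 621 and 1275 with no filter, 227 and 134 with RPKM as deposited, 600 and 1163 under the study's limits and 526 and 1086 with its limit on fold change added to the adjusted p; 1752 were higher with median-ratio scaling. For PRAMEL7 ΔN, 807 and 1759 became 137 and 134 with RPKM as deposited and 370 and 1086 with the added limit; 497 were higher with no filter, 518 with only the compared lines and 406 under the study's limits, and 1098 lower with a filter of 10 CPM. Between the derived lines, 1409 and 1219 became 812 and 615, 160 and 97, 928 and 677, and 856 and 609 in the order given for PRAMEL7 WT, 2331 and 2316 with only these lines, and 780 lower by voom without a filter. Leaving out 1 library gave 216 to 1706 higher and 447 to 2796 lower for PRAMEL7 WT, 217 to 1505 and 621 to 2777 for PRAMEL7 ΔN, and 388 to 2332 and 307 to 2316 between the derived lines.

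Libraries with the same replicate number showed no consistent common deviation (r = 0.21, -0.25 and -0.10 over 12914 genes for the 3 pairs of lines). Whether libraries of the same number shared a batch was not tested. With the replicate block Pdgfra had adjusted p = 0.0589 and 0.0510 by limma, and Gata4 and Sox7 passed as before. With 1 to 126 reads per member and library, counting error alone limits what can be resolved: even for Sox7, with 585 reads in all, the interval of the ratio to parental ESCs ran from 1.30 to 1.98 in PRAMEL7 WT cells.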
